A study of Vitis vinifera with 45 samples.

Results

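The class IV chitinase cluster of Vitis vinifera was taken as 5 transcripts with neighbouring identifiers, VIT_05s0094g00320, VIT_05s0094g00330, VIT_05s0094g00340, VIT_05s0094g00350 and VIT_05s0094g00360, out of 29958 transcripts listed. The members were chosen by identifier. Their levels were followed by RNA-seq of berry skins of the table grape Crimson Seedless at 3 stages, DAF45, DAF75 and DAF105, named by the number of days after flowering. There were 15 groups of 3 biological replicates, 45 libraries in all. The scion was Crimson Seedless in every group. It was grafted onto its own cultivar (CS/CS) or onto the commercial hybrid rootstocks 101-14 (101-14MG in the sample titles), 110R and SO4, which gave the heterografts CS/101-14, CS/110R and CS/SO4, and own-rooted, graft-free vines (CS) were the control. All combinations were planted at 1 field site and berries were taken in randomized blocks. Which vines a replicate came from is not given in the sources used here, so p-values measure only the spread between these samples. The sample titles name CS/CS and CS by the words Crimson and Crimson Seedless, so the assignment of these 2 types rests on the note under the study's read statistics.

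Chitinases are enzymes that cut chitin, a polymer of the fungal cell wall that plants do not make. Class IV chitinases belong to the pathogenesis-related proteins. In grape berries they accumulate during ripening, and together with thaumatin-like proteins they are among the main soluble proteins of the juice and a cause of protein haze in white wine. The deposited tables hold identifiers only, and 0 of them matched the RefSeq gene table, so the name of the cluster comes from its label and was not checked against sequence. The study's primer table lists VIT_05s0094g00350 as CHI, a symbol that the study spells out as chalcone isomerase, an enzyme of flavonoid synthesis. No other member has a name in the sources used here.

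The RT-qPCR primers for VIT_05s0094g00350 are shown because they define the only stretch of the cluster that the study targeted by sequence. The primer table heads the forward column 3'-5' and the reverse column 5'-3', and both are printed here in the order in which they are written there.
VIT_05s0094g00350 forward: ggagtccttttggcagcctt
VIT_05s0094g00350 reverse: caccggaagaaccaccactt
Both primers are 20 bases long.

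The libraries held 16387269 to 20765329 counts (median 18442527). Levels are given as TPM, a relative abundance scaled for transcript length and library size. A call needed a log2 fold change beyond 1 in either direction together with an adjusted p of at most 0.05, by edgeR's quasi-likelihood test with Benjamini-Hochberg adjustment over all transcripts tested. Fold changes are on the log2 scale with their SE. Statements that the libraries of groups do not overlap describe levels. The share of all transcripts without such overlap was not counted. A test of a member was counted and is given only where each group of the comparison alone held 10 counts or more in all 3 libraries. Other tests of a member rest on the group that let it pass the filter, and its levels are given in their place. As a check of the tissue, 3 transcripts were taken that the primer table names after enzymes of flavonoid and anthocyanin synthesis, F3H, LDOX and CHS (chalcone synthase). These names were not checked against sequence. No other tissue was sequenced, so detecting these transcripts cannot set skin apart from other tissues. F3H and LDOX were detected in all groups, with group means of 152 to 777 TPM for F3H and 1.71 to 130.2 TPM for LDOX. CHS was not detected in every library. Outside CS/CS its group means were 0.403 to 4.17 TPM, and the lowest library of CS/101-14 and of CS/110R at DAF105 had 0 TPM. It differed widely within CS/CS at DAF75, with 1.55 TPM in its lowest library and 109 TPM in its highest. In these bulk samples fewer cells of a type and less RNA per cell cannot be told apart.

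The cluster held 2 of the most abundant transcripts of the berry skin, VIT_05s0094g00340 and VIT_05s0094g00350, and both were high in 8 of the 15 groups. These were the 3 heterografts at DAF75 and all 5 graft types at DAF105. In those 24 libraries VIT_05s0094g00340 had 8669 to 23964 TPM and ranked between 4 and 11 among the 29958 transcripts of its library. VIT_05s0094g00350 had 8119 to 20080.5 TPM there and ranked between 5 and 14. In the other 7 groups, which were all types at DAF45 and CS/CS and CS at DAF75, the 2 transcripts did not exceed 968 and 1532 TPM.

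The share of all TPM held by the 5 members followed the same division of the groups. At DAF45 it averaged 0.0326% ± 0.0182 for CS/CS, 0.229% ± 0.156 for CS/101-14, 0.0313% ± 0.0160 for CS/110R, 0.151% ± 0.0664 for CS/SO4 and 0.153% ± 0.0267 for CS (SD, n = 3 each). At DAF75 the averages were 0.0322% ± 0.0106 for CS/CS, 2.29% ± 0.263 for CS/101-14, 3.87% ± 0.398 for CS/110R, 2.24% ± 0.208 for CS/SO4 and 0.159% ± 0.0538 for CS (SD, n = 3 each). The DAF105 averages were 3.43% ± 0.241 for CS/CS, 2.44% ± 0.304 for CS/101-14, 1.90% ± 0.192 for CS/110R, 2.27% ± 0.0502 for CS/SO4 and 2.86% ± 0.759 for CS (SD, n = 3 each). At DAF75 the heterografted libraries had 2.002% to 4.32%, while the highest library of CS/CS and CS had 0.197%. VIT_05s0094g00340 and VIT_05s0094g00350 together made up 98.4% to 99.3% of the TPM of the cluster in the 24 libraries where they were high.

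**Figure D1:**
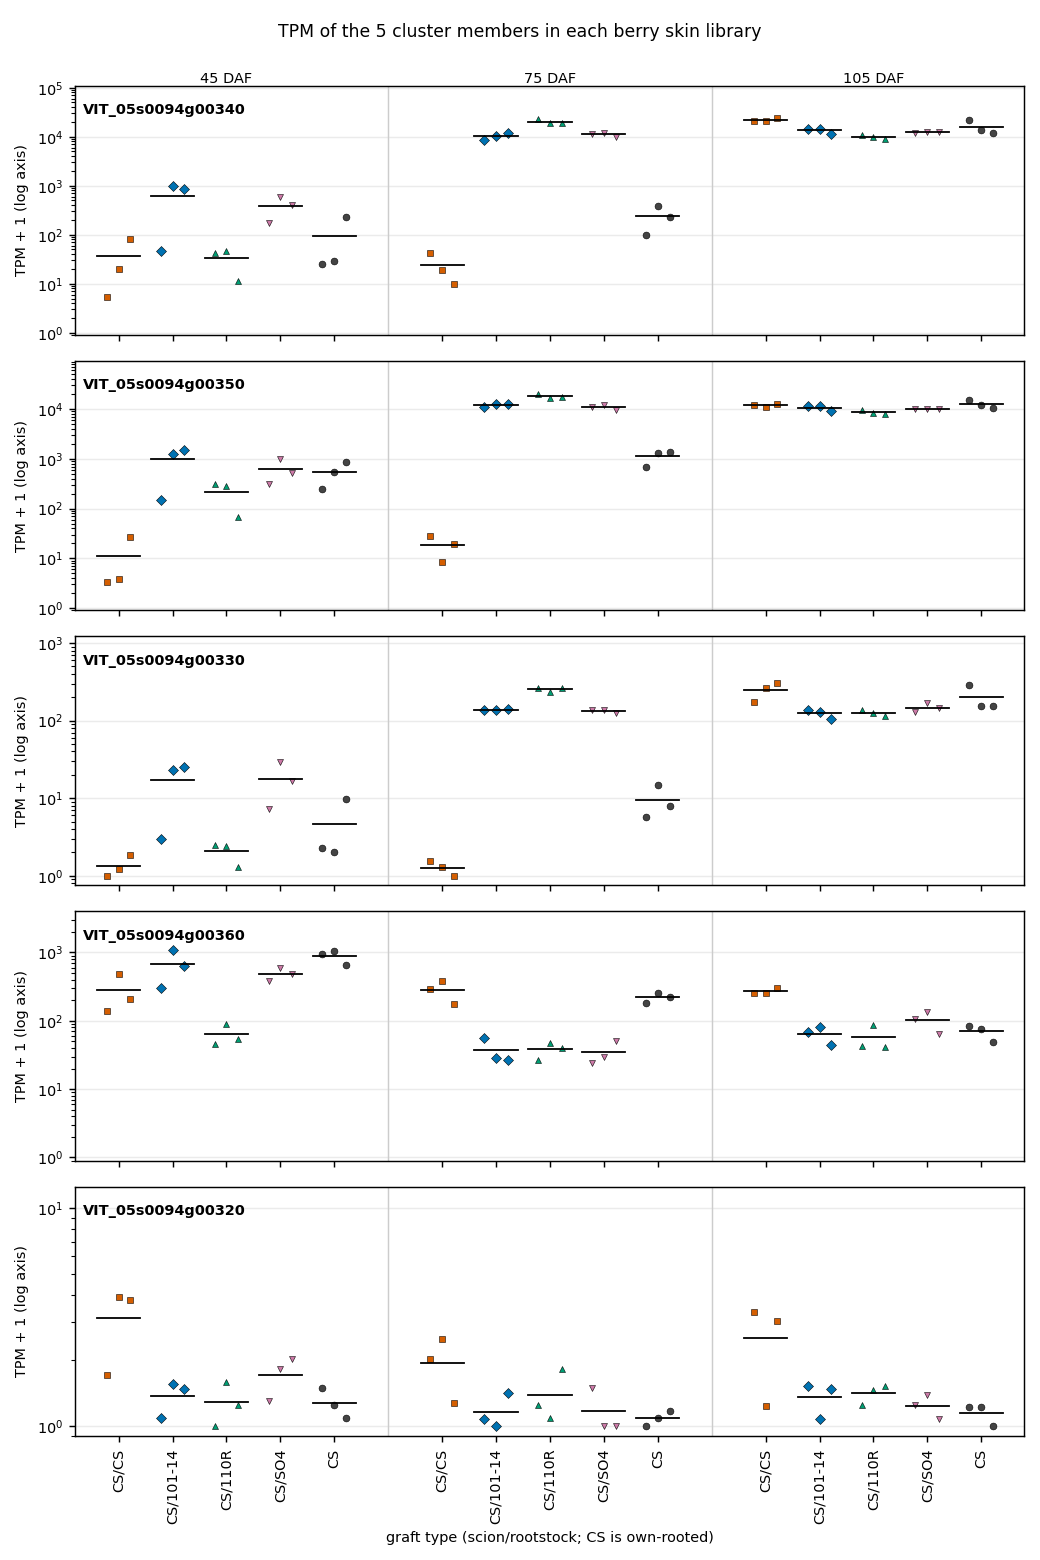
TPM plus 1 on a log axis for each of the 5 members in each library. Points are libraries, horizontal lines are group means (n = 3), and graft types are ordered within DAF45, DAF75 and DAF105. VIT_05s0094g00340, VIT_05s0094g00350 and VIT_05s0094g00330 are high in the heterografts at DAF75 and in all types at DAF105, VIT_05s0094g00360 is lowest in the heterografts at DAF75, and VIT_05s0094g00320 stays under 3 TPM.

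Set against CS, the heterografts had their most member calls at DAF75. There VIT_05s0094g00330, VIT_05s0094g00340 and VIT_05s0094g00350 were higher and VIT_05s0094g00360 was lower in each heterograft than in CS. Each heterograft differs from CS both in its rootstock and in being grafted, and these comparisons do not separate them. In CS/101-14, 3 of the 4 members counted were called higher, against 11.2% of all transcripts tested, and 1 was called lower, against 16.6%. The same counts of 3 and 1 were found in CS/110R, where 9.52% of all transcripts were called higher and 14.6% lower, and in CS/SO4, where 8.43% were called higher and 14.5% lower. The 3 comparisons share the 3 CS libraries and are not independent of each other. VIT_05s0094g00320 did not hold enough counts in any group and is left out of every count of calls. VIT_05s0094g00330 is counted as a separate member, though its levels are uncertain where VIT_05s0094g00340 is high, as described below. Of its counts above 0, 88.4% were not whole numbers.

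VIT_05s0094g00340 had 8669, 10539.9 and 12166 TPM in CS/101-14, 22802.5, 18863 and 19402 TPM in CS/110R, and 11593, 11909.7 and 10059 TPM in CS/SO4 at DAF75, against 98.8, 379 and 230.2 TPM in CS. The lowest heterografted library was far above the highest CS library. The log2 fold change against CS was 5.61 ± 0.50 in CS/101-14 (edgeR adjusted p = 3.67e-05), 6.66 ± 0.53 in CS/110R (edgeR adjusted p = 3.49e-05) and 5.72 ± 0.51 in CS/SO4 (edgeR adjusted p = 9.01e-05).

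For VIT_05s0094g00350 the values at DAF75 were 11161.5, 12749.8 and 12864 TPM in CS/101-14, 20080.5, 16401 and 17718 TPM in CS/110R, and 11189.9, 12021 and 9833 TPM in CS/SO4, against 689, 1321 and 1359 TPM in CS. Again no heterografted library overlapped with CS. Its log2 fold changes were smaller than those of VIT_05s0094g00340. They were 3.61 ± 0.27 in CS/101-14 (edgeR adjusted p = 1.83e-05), 4.25 ± 0.30 in CS/110R (edgeR adjusted p = 2.26e-05) and 3.45 ± 0.29 in CS/SO4 (edgeR adjusted p = 6.88e-05).

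VIT_05s0094g00330, the third member that was higher in the heterografts, had group means at DAF75 of 137 ± 3.12 TPM in CS/101-14, 253 ± 20.4 TPM in CS/110R and 132 ± 7.48 TPM in CS/SO4, against 8.55 ± 4.75 TPM in CS (SD, n = 3 each). Its log2 fold changes were 4.16 ± 0.34, 5.12 ± 0.36 and 4.11 ± 0.36 in CS/101-14, CS/110R and CS/SO4 (edgeR adjusted p = 2.33e-05, 2.2e-05 and 8.12e-05). VIT_05s0094g00360 moved the other way, with 54.2, 27.3 and 26.1 TPM in CS/101-14, 26.1, 46.9 and 38.7 TPM in CS/110R, and 23.4, 29.0 and 48.9 TPM in CS/SO4, against 181, 257 and 225 TPM in CS. All 9 heterografted libraries lay below the 3 CS libraries. Its log2 fold changes were -2.47 ± 0.29, -2.35 ± 0.20 and -2.57 ± 0.26 in CS/101-14, CS/110R and CS/SO4 (edgeR adjusted p = 0.00015, 4.69e-05 and 0.000147).

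**Figure D2:**
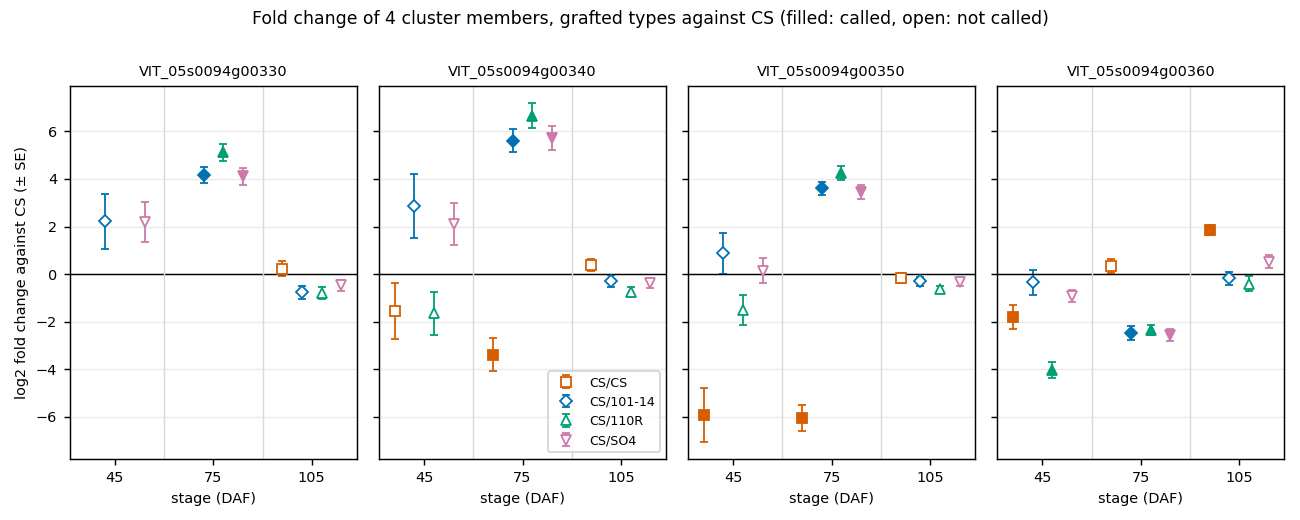
Log2 fold change of 4 members in each grafted type against CS at DAF45, DAF75 and DAF105, with the SE from edgeR. Filled points were called and open points were not. At DAF75 the 3 heterografts stand above 0 for VIT_05s0094g00330, VIT_05s0094g00340 and VIT_05s0094g00350 and below 0 for VIT_05s0094g00360, while CS/CS stands below 0 for VIT_05s0094g00340 and VIT_05s0094g00350. VIT_05s0094g00330 has no point where its counts were too low, in CS/CS at DAF45 and DAF75 and in CS/110R at DAF45.

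Self-grafting went with the opposite direction to the heterografts for VIT_05s0094g00340 and VIT_05s0094g00350 at DAF75. In CS/CS, 2 of the 3 members counted were called lower than in CS, where 6.76% of all transcripts tested were, and 0 were called higher, where 9.1% of all transcripts were. VIT_05s0094g00350 had 26.7, 7.33 and 18.3 TPM in CS/CS against 689, 1321 and 1359 TPM in CS, a log2 fold change of -6.04 ± 0.55 (edgeR adjusted p = 0.00145). VIT_05s0094g00340 had 42.2, 17.9 and 9.11 TPM in CS/CS against 98.8, 379 and 230.2 TPM in CS, a log2 fold change of -3.38 ± 0.68 (edgeR adjusted p = 0.00932). Neither transcript overlapped between the 2 types. VIT_05s0094g00330 was close to its limit of detection in CS/CS, with 14, 8 and 0 counts, against 117, 356 and 179 counts in CS. Its groups did not overlap, and no test of it is given. VIT_05s0094g00360 was not called, with 286, 379 and 175 TPM in CS/CS and 181, 257 and 225 TPM in CS and a log2 fold change of 0.34 ± 0.30 (edgeR adjusted p = 0.392).

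At DAF45 the low level of VIT_05s0094g00350 in CS/CS was already present. It had 2.29, 2.75 and 25.9 TPM in CS/CS against 247, 534 and 858 TPM in CS, a log2 fold change of -5.91 ± 1.12 (edgeR adjusted p = 0.00717). Of the 3 members counted, edgeR called 2 lower in CS/CS, where 6.15% of all transcripts tested were called lower, and 0 higher, where 12.1% were. DESeq2 and limma also called 2 of these 3 lower and 0 higher, and 0 had an unadjusted p under 0.05 with a higher level. The other member that edgeR called was VIT_05s0094g00360, with 139, 485 and 209.5 TPM in CS/CS against 959, 1042 and 658 TPM in CS, a log2 fold change of -1.81 ± 0.51 (edgeR adjusted p = 0.0306). The groups did not overlap, but the call of VIT_05s0094g00360 was lost without CS/CS replicate 1 or 3 or without CS replicate 1 or 2 (log2 fold changes of -1.76 to -1.45, edgeR adjusted p = 0.056 to 0.107). VIT_05s0094g00340 varied widely within groups, with 4.47, 18.8 and 82.0 TPM in CS/CS and 24.5, 28.3 and 225 TPM in CS, and its log2 fold change of -1.55 ± 1.17 was not called (edgeR adjusted p = 0.33). The direction of VIT_05s0094g00340 turned to 0.19 without CS replicate 3, the library with 225 TPM (edgeR adjusted p = 0.903). VIT_05s0094g00330 had 0, 6 and 20 counts in CS/CS and 33, 28 and 212 counts in CS, without overlap and with no test given.

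Among the heterografts at DAF45, only VIT_05s0094g00360 in CS/110R was called among the 11 counted tests of members against CS. It had 44.8, 89.1 and 52.4 TPM in CS/110R against 959, 1042 and 658 TPM in CS, a log2 fold change of -4.02 ± 0.35 (edgeR adjusted p = 0.00062), where 7.11% of all transcripts tested were called lower. No member was called higher in CS/110R, where 3.94% of all transcripts were. In CS/101-14, 0 of 4 members were called by edgeR, where 0.103% of all transcripts were called higher and 0.0402% lower, and 0 had an unadjusted p under 0.05. In CS/SO4, 0 of 4 were called, where 3.08% were called higher and 2.16% lower, and 2 members had an unadjusted p under 0.05 with a higher and 1 with a lower level. DESeq2 and limma also called 0 in these 2 types.

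The replicates of VIT_05s0094g00340 stood far apart in CS/101-14 at DAF45, with 46.0, 968 and 861 TPM, while CS had 24.5, 28.3 and 225 TPM (log2 fold change 2.87 ± 1.34, edgeR adjusted p = 0.344). In the one fit of all 45 libraries this difference was called (edgeR adjusted p = 0.0292). In CS/SO4 it had 175, 583 and 412 TPM (log2 fold change 2.10 ± 0.88, edgeR adjusted p = 0.14), and without CS replicate 3 this difference was called (3.83, edgeR adjusted p = 0.0115), as was the lower level of VIT_05s0094g00360 (-1.10, edgeR adjusted p = 0.0191, against -0.91 ± 0.24 with all libraries). VIT_05s0094g00350 had 148, 1233 and 1532 TPM in CS/101-14, 306, 281 and 65.8 TPM in CS/110R and 314, 1001 and 527 TPM in CS/SO4, and all 3 groups overlapped with the 247 to 858 TPM of CS. Replicate 1 of CS/101-14 was the lowest of its group for VIT_05s0094g00330, VIT_05s0094g00340, VIT_05s0094g00350 and VIT_05s0094g00360 alike.

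By DAF105 the difference between the heterografts and CS was no longer called for any of the 4 members tested. VIT_05s0094g00340 had 14454, 14370.4 and 11620.4 TPM in CS/101-14, 11091, 10050.3 and 8934 TPM in CS/110R and 11990.3, 12230.5 and 12759 TPM in CS/SO4, against 21519.7, 13786 and 11894 TPM in CS. VIT_05s0094g00350 had 11620.3, 11418.5 and 9117 TPM in CS/101-14, 9751, 8451 and 8119 TPM in CS/110R and 9908, 10261 and 10155 TPM in CS/SO4, against 15246.5, 11904 and 10567 TPM in CS. In CS/110R both lay below every CS library, with log2 fold changes of -0.75 ± 0.22 for VIT_05s0094g00340 (edgeR adjusted p = 0.0529) and -0.64 ± 0.15 for VIT_05s0094g00350 (edgeR adjusted p = 0.0288), which are under the fold that a call needs. VIT_05s0094g00350 in CS/SO4 also lay below every CS library, with a log2 fold change of -0.34. So did VIT_05s0094g00330 in CS/101-14 (103 to 135 TPM) and CS/110R (114 to 135 TPM), against 153 to 285 TPM in CS. In CS/SO4 it had 128 to 168 TPM and overlapped with CS. The share of all transcripts called higher at this stage was 1.15% for CS/101-14, 1.98% for CS/110R and 1.62% for CS/SO4, and the share called lower was 0.954%, 4.86% and 2.88%. By edgeR, an unadjusted p under 0.05 was found for 1 member in CS/101-14, for 3 in CS/110R and for 1 in CS/SO4, all with a lower level, and DESeq2 and limma called 0.

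In CS/CS at DAF105, VIT_05s0094g00360 was the only one of the 4 members tested that was called, where 12.1% of all transcripts were called higher and 4.42% lower. It had 257, 251 and 301 TPM in CS/CS against 83.9, 74.8 and 48.6 TPM in CS, a log2 fold change of 1.87 ± 0.21 (edgeR adjusted p = 0.00114), with no overlap. VIT_05s0094g00340 had 20500.3, 21130.4 and 23964 TPM in CS/CS and overlapped with CS (log2 fold change 0.38 ± 0.26, edgeR adjusted p = 0.275). VIT_05s0094g00350 had 11998, 11267 and 12532 TPM in CS/CS, within the range of CS.

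Across stages, edgeR called VIT_05s0094g00340 and VIT_05s0094g00350 higher at 1 step between neighbouring stages in each graft type, and the step differed between the types. Between DAF45 and DAF75 both rose in the heterografts, as did VIT_05s0094g00330 in CS/101-14 and CS/SO4. In CS/110R, VIT_05s0094g00330 had 6941, 5969 and 7130 counts at DAF75, against 39, 37 and 8 counts at DAF45, with no test given. Of all transcripts tested, 13% were called higher in CS/101-14, 13.9% in CS/110R and 12.8% for CS/SO4. The log2 fold changes of VIT_05s0094g00340 were 3.97 ± 1.07 in CS/101-14 (edgeR adjusted p = 0.0194), 9.50 ± 0.65 in CS/110R (edgeR adjusted p = 2.2e-05) and 4.86 ± 0.45 in CS/SO4 (edgeR adjusted p = 9.92e-05). CS/110R, with the largest of these 3 changes, held 40.9, 46.2 and 10.2 TPM at DAF45. In CS/101-14 the call of VIT_05s0094g00340 was lost without replicate 3 at either stage (edgeR adjusted p = 0.0518 to 0.0596), and that of VIT_05s0094g00330 without replicate 3 at DAF45 or any replicate at DAF75 (edgeR adjusted p = 0.0527 to 0.0564).

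In CS/CS and CS these transcripts were not called between DAF45 and DAF75, and in CS/CS the counts of VIT_05s0094g00330 were too low for a test. For VIT_05s0094g00350 the log2 fold change was 0.78 ± 0.93 in CS/CS (edgeR adjusted p = 0.563) and 0.86 ± 0.45 in CS (edgeR adjusted p = 0.166). The CS/CS value became 2.72 and was called without replicate 3 at DAF45, the library with 25.9 TPM (edgeR adjusted p = 0.0411). The log2 fold change of VIT_05s0094g00340 in CS was 1.22 ± 0.88 (edgeR adjusted p = 0.31), and it became 2.95 and was called without replicate 3 at DAF45, the library with 225 TPM (edgeR adjusted p = 0.0103). At this step 4.38% of all transcripts were called higher and 6.9% lower in CS/CS, where 0 members were called by edgeR, DESeq2 or limma and 0 had an unadjusted p under 0.05. In CS, 5.35% were called higher and 6.88% lower.

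Between DAF75 and DAF105 VIT_05s0094g00340 and VIT_05s0094g00350 rose in CS/CS, where 12.7% of all transcripts were called higher and 15.8% lower, and all 3 rose in CS, where 13.4% were called higher. The log2 fold change in CS/CS was 10.21 ± 0.72 for VIT_05s0094g00340 (edgeR adjusted p = 0.000133) and 9.76 ± 0.58 for VIT_05s0094g00350 (edgeR adjusted p = 8.07e-05). VIT_05s0094g00330 had 5319, 7324 and 8289 counts in CS/CS at DAF105, against 14, 8 and 0 counts at DAF75. In CS the log2 fold change was 6.47 ± 0.57 for VIT_05s0094g00340 (edgeR adjusted p = 3.19e-05), 3.91 ± 0.31 for VIT_05s0094g00350 (edgeR adjusted p = 2e-05) and 4.96 ± 0.45 for VIT_05s0094g00330 (edgeR adjusted p = 3.84e-05). The mean of VIT_05s0094g00340 in CS/CS was 21865 ± 1845 TPM at DAF105 and 23.0 ± 17.1 TPM at DAF75 (SD, n = 3 each).

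In the heterografts the step to DAF105 brought 0 calls for these 3 transcripts by edgeR. The share of all transcripts called higher was 4.63% for CS/101-14, 6.88% for CS/110R and 6.33% for CS/SO4, and the share called lower was 5.3%, 12.5% and 10.2%. In CS/110R all 3 were lower at DAF105 than at DAF75 by slightly less than the fold that a call needs, with log2 fold changes of -0.95 ± 0.10 for VIT_05s0094g00330, -0.94 ± 0.13 for VIT_05s0094g00340 and -0.97 ± 0.14 for VIT_05s0094g00350 (edgeR adjusted p = 0.000154, 0.000629 and 0.000626). The libraries of the 2 stages did not overlap in CS/110R for any of the 3, and the share of all transcripts for which this holds was not counted. Without replicate 2 at DAF75 all 3 were called (-1.05, -1.03 and -1.07), without replicate 3 at DAF75 VIT_05s0094g00340 and VIT_05s0094g00350 were (-1.01 and -1.02), and without replicate 1 at DAF105 VIT_05s0094g00350 was (-1.03). On log2(TPM + 1), limma called all 3 (-1.02 for VIT_05s0094g00330, -1.02 for VIT_05s0094g00340 and -1.04 for VIT_05s0094g00350). VIT_05s0094g00340 was higher at DAF105 in CS/101-14 (0.55 ± 0.16, edgeR adjusted p = 0.0378) and in CS/SO4 (0.37 ± 0.11, edgeR adjusted p = 0.0242), both under the fold that a call needs.

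Over the whole interval, from DAF45 to DAF105, edgeR called VIT_05s0094g00340 and VIT_05s0094g00350 higher in all 5 graft types, and VIT_05s0094g00330 in the 3 types where it was counted, which were CS/SO4, CS/101-14 and CS. In CS/CS, DESeq2 called 1 member where edgeR called 2, and gave no adjusted p for the other. Of all transcripts, 13.6% had a higher and 18.6% a lower call in CS/CS, 12.9% higher and 19.5% lower for CS/101-14, 16.9% higher and 23.8% lower for CS/110R, 15.1% higher and 21.9% lower for CS/SO4, and 16% higher and 21.1% lower in CS. For VIT_05s0094g00340 the log2 fold changes were 9.62 ± 1.24 in CS/CS, 4.52 ± 1.08 for CS/101-14, 8.52 ± 0.60 for CS/110R, 5.22 ± 0.43 in CS/SO4 and 7.72 ± 1.06 in CS (edgeR adjusted p = 0.000868, 0.0125, 1.05e-05, 1.1e-05 and 0.00053). The call of VIT_05s0094g00330 in CS/101-14 was lost without replicate 3 at DAF45 or replicate 1 or 2 at DAF105 (edgeR adjusted p = 0.0522 to 0.0557). VIT_05s0094g00360 was called lower over this interval in CS/101-14 (-3.31 ± 0.57, edgeR adjusted p = 0.00361), CS/SO4 (-2.03 ± 0.26, edgeR adjusted p = 0.000156) and CS (-3.42 ± 0.29, edgeR adjusted p = 5.17e-05).

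VIT_05s0094g00360 had a course of its own. It was called lower at DAF75 than at DAF45 in CS/101-14 (log2 fold change -4.32 ± 0.64, edgeR adjusted p = 0.00204), CS/SO4 (-3.84 ± 0.29, edgeR adjusted p = 4.09e-05) and CS (-2.20 ± 0.24, edgeR adjusted p = 0.000675), where 18.1%, 16.7% and 6.88% of all transcripts were called lower. In CS/110R, 17.6% were. Its values in CS/101-14 were 54.2, 27.3 and 26.1 TPM at DAF75, against 297, 1099 and 641 TPM at DAF45. In CS/CS it kept 139 to 485 TPM at all 3 stages, with 0 calls between stages by edgeR, and in CS/110R it kept 26.1 to 89.1 TPM, also with 0 calls.

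Between DAF75 and DAF105 the course of VIT_05s0094g00360 split again. It fell in CS (-1.26 ± 0.22, edgeR adjusted p = 0.00113), where 20.1% of all transcripts were called lower. It rose in CS/SO4 (1.82 ± 0.30, edgeR adjusted p = 0.00163), where it had 106, 135 and 62.2 TPM at DAF105, against 23.4, 29.0 and 48.9 TPM at DAF75. In CS/101-14 its log2 fold change was 1.02 ± 0.33, just past the adjusted p that a call needs (edgeR adjusted p = 0.0507). It was called by DESeq2 (adjusted p = 0.00506) and by edgeR with no filter beyond 1 count (1.01, edgeR adjusted p = 0.0442). It was also called without replicate 1 at DAF75 (1.43, edgeR adjusted p = 0.0165) or without replicate 3 at DAF105 (1.25, edgeR adjusted p = 0.0257). Its value with the replicate block is given in the closing section.

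**Figure D3:**
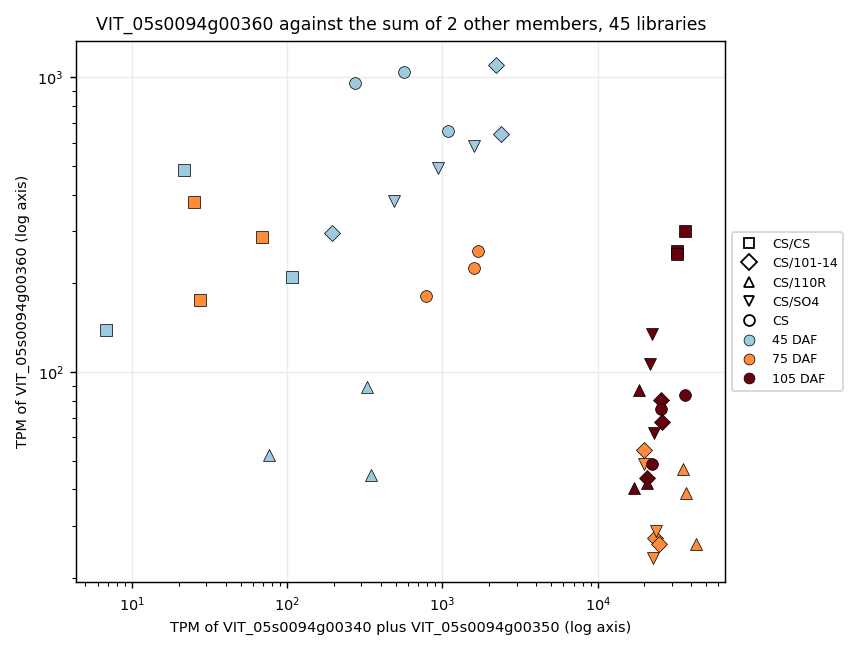
TPM of VIT_05s0094g00360 against the summed TPM of VIT_05s0094g00340 and VIT_05s0094g00350 in 45 libraries, both on log axes, with marker shape for graft type and colour for stage. The libraries with the highest sums mostly lie under 140 TPM of VIT_05s0094g00360, except the 3 CS/CS libraries at DAF105 with 251 to 301 TPM, and CS/110R at DAF45 is low in both.

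Over the 15 group means of log2(TPM + 1), the Pearson correlation of VIT_05s0094g00360 with VIT_05s0094g00340 was -0.587 and with VIT_05s0094g00350 -0.566, while VIT_05s0094g00340 and VIT_05s0094g00350 correlated at 0.945 and VIT_05s0094g00330 and VIT_05s0094g00340 at 0.995. These are descriptions across groups that share stages and graft types. They carry no test.

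Among the heterografts at DAF75, the means of VIT_05s0094g00340, VIT_05s0094g00350 and VIT_05s0094g00330 were highest in CS/110R. No CS/110R library overlapped with CS/101-14 or CS/SO4 for any of the 3, and how many of all transcripts were apart in this way was not counted. Set against CS/110R, CS/101-14 had a log2 fold change of -1.04 ± 0.15 for VIT_05s0094g00340 (edgeR adjusted p = 0.00998), the only call among 4 members where 0.628% of all transcripts were called higher and 1.12% lower. It was under the fold that a call needs without replicate 1 of CS/101-14 or of CS/110R (-0.92 and -0.90) and by limma on log2(TPM + 1) (-0.97), and in the one fit of all 45 libraries its edgeR adjusted p was 0.569. VIT_05s0094g00330 was called higher in CS/110R than in CS/SO4 (1.02 ± 0.11, edgeR adjusted p = 0.00781), where 0.736% of all transcripts were called higher, and lost the call without CS/110R replicate 1 or CS/SO4 replicate 3 (0.94 and 0.95), by limma (0.93) and in the one fit (edgeR adjusted p = 0.375). The corresponding value of VIT_05s0094g00350 was 0.80 ± 0.15 (edgeR adjusted p = 0.0298). Between CS/101-14 and CS/SO4, 0 members were called at any stage by edgeR, DESeq2 or limma, and 1 had an unadjusted p under 0.05, at DAF105. Few of all transcripts were called there either, with 0% higher and 0.0171% lower at DAF45, 0.805% and 0.879% at DAF75, and 1.99% and 0.962% at DAF105.

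At DAF45 CS/110R had the lowest means of the heterografts. VIT_05s0094g00340 had 40.9, 46.2 and 10.2 TPM in CS/110R against 175, 583 and 412 TPM in CS/SO4, a log2 fold change of -3.72 ± 0.64 (edgeR adjusted p = 0.00729). VIT_05s0094g00360 (-3.08 ± 0.31, edgeR adjusted p = 0.00136) was called lower as well, which made 2 of 3 members counted where 5.79% of all transcripts were called lower. VIT_05s0094g00360 was also higher in CS/101-14 than in CS/110R (3.69 ± 0.61, edgeR adjusted p = 0.0346), where 2.3% of all transcripts were called higher and 1 of 3 members counted was by edgeR. All 3 had an unadjusted p under 0.05 with a higher level, limma called 1 and DESeq2 called 2. VIT_05s0094g00340 had a larger fold change (4.53 ± 1.21, edgeR adjusted p = 0.0731), which was not called by edgeR but was by DESeq2 (adjusted p = 0.00207). VIT_05s0094g00350 was not called either (2.40 ± 0.95, edgeR adjusted p = 0.156). Both were called in the one fit of all 45 libraries (edgeR adjusted p = 0.000284 and 0.00685) and without CS/101-14 replicate 1 (5.09 and 2.92, edgeR adjusted p = 0.00356 and 0.0156). The edgeR call of VIT_05s0094g00360 held without CS/101-14 replicate 1 and was lost without any other of the 6 libraries (3.03 to 4.05, edgeR adjusted p = 0.0596 to 0.146). At DAF105 0 of 4 members were called in the 3 comparisons between rootstocks by edgeR, DESeq2 or limma. The share of all transcripts called higher and lower was also small there, with 2.09% and 0.322% for CS/101-14 against CS/110R and 0.983% and 1.4% for CS/110R against CS/SO4, beside the values for CS/101-14 against CS/SO4 above. With an unadjusted p under 0.05, 2 members were higher in CS/101-14 than in CS/110R, 1 was lower in CS/101-14 than in CS/SO4 and 4 were lower in CS/110R than in CS/SO4.

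Set against the mean of the 3 heterografts, CS/CS showed the widest differences of the cluster at DAF75. Of the 3 members counted, 2 were called lower, where 14.9% of all transcripts were, and 1 higher, where 20.1% were. The log2 fold change was -9.36 ± 0.53 for VIT_05s0094g00340 (edgeR adjusted p = 4.44e-08) and -9.79 ± 0.44 for VIT_05s0094g00350 (edgeR adjusted p = 8.91e-09). VIT_05s0094g00360 was higher in CS/CS (2.83 ± 0.27, edgeR adjusted p = 2.55e-06).

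At DAF45, 1 of 3 members counted was called lower in CS/CS than in the heterografts, where 6.31% of all transcripts were, and 0 higher by edgeR, DESeq2 or limma, where 11.8% were. This was VIT_05s0094g00350 (-5.80 ± 1.18, edgeR adjusted p = 0.00228). VIT_05s0094g00340 was not called (-2.69 ± 1.06, edgeR adjusted p = 0.0566), and it was called by DESeq2 (adjusted p = 0.0119) and limma (adjusted p = 0.0429), in the one fit (edgeR adjusted p = 0.00317), and without CS/CS replicate 3 (-4.18) or CS/101-14 replicate 1 (-2.88). At DAF105, 1 of 4 was called, where 14.8% of all transcripts were called higher and 4.94% lower. This was VIT_05s0094g00360, which was higher in CS/CS (1.90 ± 0.24, edgeR adjusted p = 5.52e-05), and VIT_05s0094g00340 was 0.86 ± 0.10 higher with an edgeR adjusted p of 3.18e-05, under the fold that a call needs. VIT_05s0094g00330 was under that fold as well (0.91 ± 0.15, edgeR adjusted p = 0.000388), and it was called without CS/CS replicate 1 (1.13, edgeR adjusted p = 3.84e-05). All 4 members had an unadjusted p under 0.05 with a higher level in CS/CS, and DESeq2 and limma each called 1.

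Whether the effect of grafting changed between neighbouring stages was tested by an interaction term, and 24 of 29 counted tests of members were called. In a single contrast 5.23% to 14.4% of all transcripts were called higher and 4.83% to 14.2% lower. VIT_05s0094g00360 was called in all 8 contrasts, 6 times higher and 2 times lower. Some calls between DAF45 and DAF75 were lost without single libraries, as given in the closing sections. Between DAF75 and DAF105, VIT_05s0094g00340 and VIT_05s0094g00350 were each called in all 4 grafted types, and VIT_05s0094g00330 in the 3 heterografts. The change of effect of these transcripts was positive in CS/CS, where 9.27% of all transcripts were called higher, and negative in CS/101-14, CS/110R and CS/SO4, where 10.1%, 10.7% and 9.15% were called lower. For VIT_05s0094g00340 it was 3.75 ± 0.77 in CS/CS (edgeR adjusted p = 0.00604), -5.88 ± 0.58 in CS/101-14 (edgeR adjusted p = 1.51e-05), -7.39 ± 0.58 in CS/110R (edgeR adjusted p = 3.27e-06) and -6.07 ± 0.56 in CS/SO4 (edgeR adjusted p = 9.67e-06). The change of VIT_05s0094g00360 at this step was positive in all 4 types. The 4 contrasts use the same CS libraries, so their directions are not independent.

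The proportion between the 2 abundant members also changed. The TPM of VIT_05s0094g00340 divided by that of VIT_05s0094g00350 averaged 0.553 ± 0.238 in CS/101-14 at DAF45, 0.8497 ± 0.0868 at DAF75 and 1.26 ± 0.0154 at DAF105 (SD, n = 3 each). In CS/110R it was 0.151 ± 0.0157 at DAF45, 1.13 ± 0.0285 at DAF75 and 1.14 ± 0.0446 at DAF105, and in CS/SO4 0.640 ± 0.123, 1.02 ± 0.0233 and 1.22 ± 0.0333 at the same stages. In CS it was 0.138 ± 0.110 at DAF45, 0.200 ± 0.0764 at DAF75 and 1.23 ± 0.156 at DAF105. The ratio was therefore below 0.3 in every library of CS at DAF45 and DAF75 and of CS/110R at DAF45, and above 1 in every library at DAF105. CS/CS had the highest ratio at DAF105, with 1.71 to 1.91, while all other types lay between 1.10 and 1.41 and did not overlap with it. At DAF45 and DAF75 the CS/CS ratio ranged widely, from 0.498 to 6.83, at levels of 2.29 to 82.0 TPM.

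**Figure D4:**
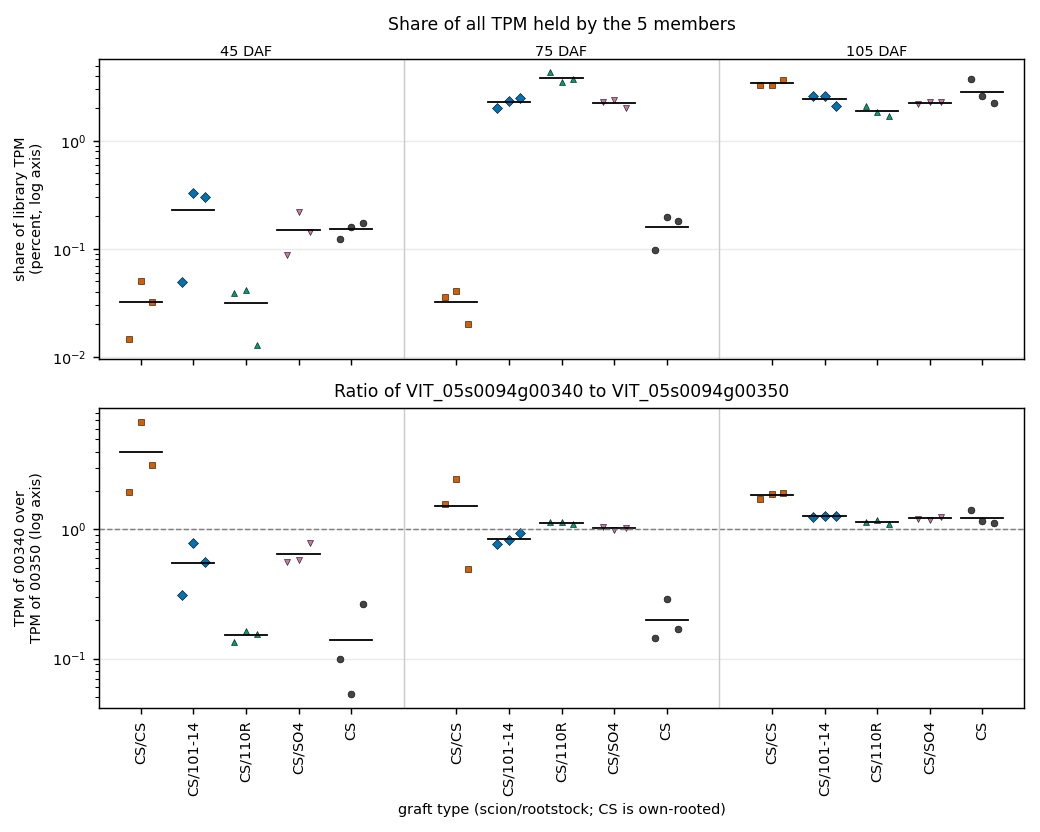
Top, percent of all TPM of a library held by the 5 members, and bottom, TPM of VIT_05s0094g00340 over TPM of VIT_05s0094g00350, both on log axes. Points are libraries and lines are group means (n = 3). The share is 1.72% to 4.32% in the heterografts at DAF75 and in all types at DAF105, and the ratio of CS/CS at DAF105, 1.71 to 1.91, lies above all other types at that stage.

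VIT_05s0094g00330 followed VIT_05s0094g00340 at a low level. Its counts were 1.79% to 10.7% of those of VIT_05s0094g00340 in 43 libraries and 0 in 2 CS/CS libraries, which allow up to 3 counts. Of its counts above 0, 38 of 43 (88.4%) were not whole numbers, against 14 of 45 (31.1%) for VIT_05s0094g00340, 5 of 45 (11.1%) for VIT_05s0094g00350, 2 of 45 (4.44%) for VIT_05s0094g00360 and 12.4% over all transcripts, with a tolerance of 1e-06. Fractional counts can arise where reads match more than 1 transcript, and the sources used here do not say how the authors divided such reads. Whether members share near-identical stretches, and how much of VIT_05s0094g00330 is its own signal, was not tested, and its levels are uncertain where VIT_05s0094g00340 is high.

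VIT_05s0094g00320 was hardly detected, with 0 to 34 counts in every library and a highest group mean of 2.13 TPM, in CS/CS at DAF45. Its highest group means were those of CS/CS at DAF45, DAF105 and DAF75. In no group did all 3 libraries hold 10 counts of it, so no test of it is given. In CS at DAF75 and DAF105 each library held 3 counts or fewer after rounding.

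In the order of the 15 group means, most neighbours overlapped in their libraries. For VIT_05s0094g00340 the order ran from CS/CS at DAF105 (21865 TPM) over CS/110R at DAF75 (20355.7 TPM) down to CS/CS at DAF75 (23.0 TPM), and 12 of the 14 pairs of neighbours overlapped. One of the 2 gaps lay between CS/110R at DAF105 (10025 TPM) and CS/101-14 at DAF45 (625 TPM). For VIT_05s0094g00350, CS/110R at DAF75 (18067 TPM) was apart from the next group, CS at DAF105 (12572 TPM), and the 2 CS/CS groups at DAF75 (17.4 TPM) and DAF45 (10.3 TPM) were apart from all others. VIT_05s0094g00360 was highest in CS at DAF45 (886 TPM) and lowest in CS/SO4 at DAF75 (33.8 TPM), with 12 of 14 pairs of neighbours overlapping.

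No other transcript with the prefix VIT_05s0094g reached the highest group mean of VIT_05s0094g00340, VIT_05s0094g00350 or VIT_05s0094g00360. Of 154 such transcripts, 15 were at 0 throughout and 83 had a group mean of at least 10 TPM in any group, and the highest group mean was 512 TPM, in VIT_05s0094g01520. At DAF75, 3 of 100 tested were called higher than in CS and 21 lower for CS/101-14, where 11.2% of all transcripts were called higher and 16.6% lower. For CS/110R 4 of 101 were called higher and 20 lower, beside 9.52% and 14.6% of all transcripts, and for CS/SO4 2 of 101 were higher and 17 lower, beside 8.43% and 14.5%. The median log2 fold change of these transcripts in CS/101-14 was 0.07, beside 0.01 for all transcripts tested.

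Since VIT_05s0094g00350 carries a flavonoid name in the primer table, the 7 other transcripts that the table names as phenylpropanoid and flavonoid genes were set beside it. Their names were not checked against sequence either. At DAF75, 3 of 6 tested were called higher and 1 lower in each heterograft than in CS. The shares of all transcripts called there are those given above for the neighbours. The 3 higher were F3H, LDOX and 4CLL5, and 4CLL2, named after 4-coumarate CoA ligase, was the one that was lower. The log2 fold change of 4CLL2, opposite in sign to that of VIT_05s0094g00350, was -1.82 ± 0.08 for CS/101-14, -1.76 ± 0.09 for CS/110R and -1.69 ± 0.08 for CS/SO4 (edgeR adjusted p = 1.82e-06, 5.61e-06 and 1.14e-05).

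In CS/CS at DAF75, 4CL1, also named after 4-coumarate CoA ligase, was called higher than in CS (2.78 ± 0.77, edgeR adjusted p = 0.0267) and 4CLL5 lower (-1.32 ± 0.32, edgeR adjusted p = 0.017), as 9.1% and 6.76% of all transcripts were, while VIT_05s0094g00350 was lower. The level of 4CL1 was 9.07 to 67.5 TPM in the 3 CS/CS libraries against 2.85 to 7.17 TPM in CS. Its call was lost without CS/CS replicate 1 (1.60, edgeR adjusted p = 0.0504), without CS replicate 2 or 3 (2.53 and 2.64, edgeR adjusted p = 0.0944 and 0.0909) and by limma (2.15, adjusted p = 0.0519). The call of 4CLL5 was lost without CS/CS replicate 1 (-1.22, edgeR adjusted p = 0.0618) or CS replicate 3 (-0.93, edgeR adjusted p = 0.0373). At DAF45 1 of 6 tested was again higher and 1 lower in CS/CS than in CS, beside 12.1% and 6.15% of all transcripts. The one that was higher was 4CL1 (2.24 ± 0.25, edgeR adjusted p = 0.0011), and 4CLL5 was called lower, as was VIT_05s0094g00350.

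Of 13529 transcripts outside the cluster with a group mean of at least 10 TPM in any group, VIT_06s0004g02560, which the primer table calls ripening-related protein-like, was most like VIT_05s0094g00340 over the 15 group means of log2(TPM + 1), with a Pearson correlation of 0.994. It was also the most like VIT_05s0094g00330 (0.993). Its group means at DAF75 were 7956 ± 936 TPM in CS/101-14, 12809 ± 709 TPM in CS/110R, 12307 ± 1386 TPM in CS/SO4 and 16.3 ± 5.61 TPM in CS/CS, against 123 ± 94.4 TPM in CS (SD, n = 3 each). VIT_05s0094g00350 was most like VIT_17s0000g05580 (0.986), an identifier without a name here, and next VIT_17s0000g00430 (0.980), which the primer table calls BHLH77 after the family of basic helix-loop-helix transcription factors. For VIT_05s0094g00360 the most like was VIT_19s0014g02850 (0.967), whose highest group mean was 18.8 TPM. The points share libraries, stages and graft types, and no test was made.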

How the data were processed

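RNA-seq of grape berry skins was deposited as a table of estimated counts and a table of TPM for 29958 transcripts in 45 libraries. The authors trimmed reads with fastp and worked with HISAT2, StringTie and HTSeq on the Vitis vinifera 12X assembly. Versions and the rule that made some estimated counts fractional are not given in the sources used here. The deposited TPM values (scaled by the authors for length and depth) were used for levels, and the deposited estimated counts were rounded and tested with edgeR 4.0.16 (quasi-likelihood, TMM) in R 4.3.3 after keeping transcripts that reached 10 counts in 3 or more libraries of a comparison, with only its own groups in each fit. The 47 comparisons set grafted types against CS, later against earlier stages, rootstocks and CS/CS against heterografts, and graft effects between stages. Alternatives were DESeq2 1.42.0, limma 3.58.1 on log2(TPM + 1) for transcripts with a mean of at least 1 TPM, RLE size factors, no filter beyond 1 count, one fit of all 45 libraries, a replicate block, and each library left out. A member's test was counted only where each group alone reached 10 counts in 3 libraries, which left out 7 tests of VIT_05s0094g00320 and 14 of VIT_05s0094g00330. Scripts were tested on simulated data. SE is the absolute log2 fold change over the square root of F. Tables and figures used Python 3.11.15, pandas 2.3.3 and matplotlib 3.10.9.

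The text names the 5 members, the other VIT_05s0094g transcripts as a list, the 7 other phenylpropanoid and flavonoid genes of the primer table (values where the direction was opposite to VIT_05s0094g00350), and up to 2 transcripts most correlated with each member. Members and lists were chosen with earlier results of these data known. Lists by description (chitinase, thaumatin-like, osmotin, glucanase, pathogenesis-related) were not run, since 0 identifiers matched RefSeq. Columns left unassigned numbered 0. Total counts were 16387269 to 20765329 per library.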

Additional observations from a re-analysis of the deposited data

Results flagged for a closer look

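The effect of grafting, as a log2 fold change against CS, differed between neighbouring stages in 24 of 29 counted edgeR interaction tests of members, each called at the thresholds used for the other comparisons. Every value below is the effect at the later stage minus that at the earlier stage, and all share the CS libraries.

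Between DAF45 and DAF75 the difference for CS/110R was 8.33 for VIT_05s0094g00340, 5.77 for VIT_05s0094g00350 and 1.69 for VIT_05s0094g00360, all 3 members counted. The log2 fold change of VIT_05s0094g00360 against CS stayed negative, with -4.02 at DAF45 and -2.35 at DAF75. For CS/SO4 the difference was 3.63 for VIT_05s0094g00340, 3.32 for VIT_05s0094g00350 and -1.65 for VIT_05s0094g00360. For CS/101-14 it was 2.75 for VIT_05s0094g00350 and -2.10 for VIT_05s0094g00360, and for CS/CS it was 2.18 for VIT_05s0094g00360. The share of all transcripts called higher was 5.23% for CS/CS, 6.97% for CS/101-14, 12.2% for CS/110R and 6.34% for CS/SO4, and the share called lower was 6.45%, 13.5%, 14.2% and 11.9%. When single libraries were left out, VIT_05s0094g00360 lost its call 9 times for CS/CS (1.83 to 2.30, edgeR adjusted p = 0.0538 to 0.0803) and 7 times for CS/101-14 (-2.15 to -1.49, edgeR adjusted p = 0.0514 to 0.064), and VIT_05s0094g00350 lost it 9 times for CS/101-14 (2.30 to 2.996, edgeR adjusted p = 0.0507 to 0.112). VIT_05s0094g00340 lost it for CS/SO4 without CS replicate 3 at DAF45 (1.90, edgeR adjusted p = 0.0628) or at DAF75 (3.61, edgeR adjusted p = 0.0509).

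Between DAF75 and DAF105 the difference for VIT_05s0094g00330 was -4.91 for CS/101-14, -5.89 for CS/110R and -4.56 for CS/SO4. For VIT_05s0094g00340 it was 3.75 in CS/CS, -5.88 for CS/101-14, -7.39 for CS/110R and -6.07 for CS/SO4, and for VIT_05s0094g00350 it was 5.86, -3.89, -4.86 and -3.77 in the same order of types. VIT_05s0094g00360 was positive in all 4 types, with 1.51 in CS/CS, 2.31 for CS/101-14, 1.96 for CS/110R and 3.11 for CS/SO4. The share of all transcripts called higher was 9.27%, 14.4%, 9.92% and 11.2% in that order, and the share called lower was 4.83%, 10.1%, 10.7% and 9.15%. The CS/CS value of VIT_05s0094g00360 was not called in the one fit of all 45 libraries (edgeR adjusted p = 0.0624). Groups of 3 libraries were not tested for single libraries that stand apart.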

How the results depend on the processing

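The member calls against CS numbered 18 of 45 counted tests, 17 to 21 when single libraries were left out and 18 to 21 under the other settings. Between stages they numbered 34 of 55 (31 to 37, and 34 to 37), between rootstocks 5 of 34 (3 to 7, and 3 to 6), for CS/CS against the heterografts 5 of 10 (5 to 6, and 5 to 6) and for graft effects between stages 24 of 29 (20 to 24, and 22 to 24). Between rootstocks the lowest count of 3 came from limma and from leaving out CS/110R replicate 1 at DAF75. These counts pool both directions and comparisons that share libraries, and they show only how calls move with the settings. No share of all transcripts was taken over the pools. In single comparisons 0% to 20.1% of all transcripts were called higher and 0.0171% to 23.8% lower. Of 86 called values, 0 reversed under the settings run. RLE size factors, no filter and the replicate block ended 0 of these calls, the one fit of all 45 libraries ended 3, limma ended 2, and leaving out single libraries ended 49 of 690 values, over 11 results. DESeq2 gave an adjusted p for 83 of the 86 values and called all of these. Values without an adjusted p were not called by DESeq2. For DAF105 against DAF45 in CS/CS, DESeq2 called 1 member and edgeR 2. For the graft effect between DAF45 and DAF75, DESeq2 called 2 members in CS/110R and edgeR 3. In CS/SO4, DESeq2 called 1 higher and 1 lower, and edgeR called 3. Of 87 differences that were not called, 26 changed sign under at least 1 setting. Among them, VIT_05s0094g00340 in CS/CS against CS at DAF45 ranged from -3.04 to 0.19 when libraries were left out, with -1.55 from all libraries. With the replicate block there were 19, 35, 5, 6 and 24 calls in the order above, and VIT_05s0094g00340 (-1.60, edgeR adjusted p = 0.0231) was called lower in CS/CS than in CS at DAF45, VIT_05s0094g00340 was called lower in CS/CS than in the heterografts at DAF45 (-3.06, edgeR adjusted p = 0.0311), and VIT_05s0094g00360 rose between DAF75 and DAF105 in CS/101-14 (1.05, edgeR adjusted p = 0.0216). The libraries share only a number. In 0 of 36 pairs of groups were all 3 correlations of same-numbered libraries over 0.1, and in 3 every library was closest to its own number. Low counts limited VIT_05s0094g00320 and VIT_05s0094g00330, for which 7 and 14 tests were left out. The median of all transcripts tested moved by more than 0.1 under limma alone (-0.38 to 0.30).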
